A study of Rattus norvegicus with 8 samples.

Results

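Expression of 85 genes that the deposited annotation describes as sequence-specific transcription factors was examined in nucleus pulposus cells of the rat, which fill the soft centre of intervertebral discs. Members were the rows of the deposited TPM table annotated with the gene ontology (GO) term for sequence-specific DNA-binding transcription factor activity. Of 105 such rows among 4226, the rule left out 9 whose names start with Zfp or Znf and 11 others by name, among them the clock repressor Nr1d1, the stress factors Ddit3 and Atf3 and the cartilage factor Sox9. All 85 members were protein-coding genes, and 70 of them reached a mean of 1 TPM over the 8 libraries and were tested.

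SOD1, the superoxide dismutase of the cytosol, had been knocked down, and the cells were transfected either with wild-type SOD1 (SOD1-WT, 4 libraries) or with SOD1 carrying K123R, a lysine-to-arginine substitution (SOD1-K123R, 4 libraries). Lactate is the treatment label of all 8 libraries, and the series design gives 10 mM over 7 days. SOD1-WT libraries are titled as controls. Their columns are headed Ctrl, while the SOD1-K123R columns are headed L, and what L abbreviates is not explained. No library labelled as free of lactate was analysed here, and neither was the row of Sod1, so the substitution, the amount of SOD1 and, should L mean lactate, lactate itself cannot be told apart. Nothing in the labels names separate cultures behind the 4 replicates, and p-values therefore cover the spread of these libraries alone, which may be technical. Strain, age and sex of the rats are not in the labels used here, and no sequencing or extraction batch was named. Library names are numbered consecutively within each group, so handling by group and the group itself cannot be told apart.

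TPM is a transcript abundance on a common total per library, corrected for transcript length as well. The rows held 19.3% ± 0.526 of a library's TPM total in SOD1-WT and 24.0% ± 0.334 in SOD1-K123R (SD, n = 4 for both), so the table is a part of the transcriptome. Read depth cannot be recovered from TPM. Across genes, libraries correlated at 0.981 to 0.994 within groups and at 0.788 to 0.818 between groups. Of 17 markers listed for nucleus pulposus cells 8 were in the table, with sums of 54.6 to 69.3 TPM in SOD1-WT and 46.7 to 67.9 TPM in SOD1-K123R. All 7 that were tested passed, in both directions: Cd24 (log2 fold change 1.52), Car12 (1.26) and Sox9 (1.58) rose, and Cdh2 (-1.40), Car3 (-1.72), Ncam1 (-0.99) and Acan (-0.62) fell. The defining matrix genes were low: Col2a1 was listed at 0 TPM throughout SOD1-WT, and Acan had a mean of 1.55 TPM there. Sums over 2 annulus and tendon markers were 34.6 to 55.2 and 17.03 to 21.7 TPM, and over 2 macrophage markers 5.44 to 8.04 and 23.4 to 30.9 TPM. Of 2 bone markers Ibsp fell from 9.22 to 1.54 TPM and Runx2 rose from 4.52 to 13.3 TPM. Only 1 endothelial and 1 muscle marker were in the table, both under 1 TPM, and erythroid markers were not analysed here. The part of other cell types in the results was not tested, and in bulk RNA fewer cells of a type and less RNA per cell cannot be told apart.

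Sequence-specific transcription factors bind short DNA motifs in promoters and enhancers and recruit coactivators or corepressors that raise or lower transcription by RNA polymerase II. They fall into families by the fold of the DNA-binding domain. Basic leucine zipper (bZIP) and basic helix-loop-helix (bHLH) proteins bind as dimers, so the partner available decides which dimer forms, while the NF-Y factor needs 3 different subunits to bind its CCAAT box. In the disc, factors of the SOX, HIF, NF-kB and TCF/LEF families are known for their roles in matrix synthesis, survival in low oxygen, inflammation and response to Wnt signals.

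Several members belong to families whose own recognition motifs occur in member promoters, and 5 such promoters are printed to show where these matches lie. RefSeq sequences (GRCr8) covering the 250 bases before the annotated start were found by symbol for 64 of 85 members, 52 of them tested. Each run reads 5′ to 3′ on the gene's strand and ends at the base before the start. Capitals mark the palindromic cAMP response element TGACGTCA (CRE), bound by CREB, ATF and some JUN dimers, the E-box CACGTG, bound by bHLH zipper dimers, and the CCAAT box in either orientation (CCAAT or ATTGG), bound by NF-Y. Matches are descriptions of sequence, not evidence of binding.
Nfya, chr9:20084831-20085080, plus strand: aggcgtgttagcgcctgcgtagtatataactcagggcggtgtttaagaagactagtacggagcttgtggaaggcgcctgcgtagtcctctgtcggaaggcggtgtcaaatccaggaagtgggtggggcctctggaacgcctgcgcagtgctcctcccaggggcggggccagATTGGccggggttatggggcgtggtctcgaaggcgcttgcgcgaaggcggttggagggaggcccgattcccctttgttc
Mnt, chr10:60197709-60197958, plus strand: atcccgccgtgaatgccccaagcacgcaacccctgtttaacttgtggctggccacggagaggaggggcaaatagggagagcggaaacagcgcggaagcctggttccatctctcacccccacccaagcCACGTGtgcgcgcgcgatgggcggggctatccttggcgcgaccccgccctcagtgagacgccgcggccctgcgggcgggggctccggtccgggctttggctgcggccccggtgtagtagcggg
Jund, chr16:18769772-18770021, minus strand: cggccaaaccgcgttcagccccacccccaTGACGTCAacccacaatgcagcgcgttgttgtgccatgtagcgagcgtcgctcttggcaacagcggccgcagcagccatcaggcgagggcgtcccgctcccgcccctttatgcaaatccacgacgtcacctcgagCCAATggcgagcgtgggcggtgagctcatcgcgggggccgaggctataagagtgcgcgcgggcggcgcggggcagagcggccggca
Maff, chr7:112792537-112792786, plus strand: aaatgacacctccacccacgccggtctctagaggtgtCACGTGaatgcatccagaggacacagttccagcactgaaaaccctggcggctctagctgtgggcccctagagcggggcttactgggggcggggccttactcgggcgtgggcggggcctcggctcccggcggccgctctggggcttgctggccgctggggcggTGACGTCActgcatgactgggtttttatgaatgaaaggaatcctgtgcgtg
Snapc5, chr8:73572253-73572502, plus strand: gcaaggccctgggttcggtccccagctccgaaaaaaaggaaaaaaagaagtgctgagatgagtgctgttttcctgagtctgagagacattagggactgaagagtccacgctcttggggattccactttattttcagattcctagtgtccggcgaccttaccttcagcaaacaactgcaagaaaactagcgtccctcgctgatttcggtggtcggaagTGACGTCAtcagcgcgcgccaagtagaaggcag

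The Nfya promoter holds a CCAAT box whose first base lies 79 bases before the start, the Mnt promoter an E-box, and the Jund promoter a CRE at 221 bases and a CCAAT box at 86 bases. Maff has an E-box at 213 bases and a CRE at 51 bases, and Snapc5 a CRE at 33 bases. The CRE was present in 3 of 52 tested members with a promoter (5.77%), against 2.80% of 2104 tested genes of the table and 1.70% of 27457 gene symbols in the RefSeq table. Jund and Maff rose in SOD1-K123R and Snapc5 fell, so the members with this motif did not share a direction. The E-box was in 7 of 52 members (13.5%, against 9.17% of tested genes), namely 6 of 38 that rose and 1 of 14 that fell. The CCAAT box was in 14 of 52 (26.9%, against 35.8%), in 11 that rose and 3 that fell. The GC box GGGCGG, searched on both strands as all motifs were, was in 39 of 52 (75.0%, against 58.1%), and the promoters' median GC content was 66.0%, against 60.4% for tested genes. GC boxes are more frequent in GC-rich sequence, and the part of base composition in these shares was not tested. The AP-1 site TGACTCA was found in 1 of 52 members (1.92%, against 3.52% of tested genes). The TATA box TATAAA was in 4 (7.69%, against 7.65%) and the TCF site CTTTGAT in 0 (against 1.81%). Motifs could overlap each other, and matches were counted separately for each motif.

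Most of the tested transcription factor genes were higher in SOD1-K123R. All 70 passed the test (limma on log2(TPM + 1), Benjamini-Hochberg adjusted p under 0.05 over all 2890 genes tested), 50 of them higher and 20 lower. The background is high, since 95.7% of all genes tested passed, 44.6% higher and 51.1% lower. The members' shares were 71.4% higher and 28.6% lower, and their median log2 fold change was 0.90, against -0.49 over all genes tested. Changes of at least 2-fold were seen upward in 30 members and downward in 16, against 26.0% and 35.8% of all genes. For 68 members all libraries of 1 group lay above all of the other, as was so for 91.4% of all genes tested, the exceptions being Trps1 and Rel. Small changes were rare in the table, with 244 of 2890 genes within 0.5 of 0 on the log2 scale. The rows may have been selected on this contrast, so passing the test says little about a single member.

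**Figure D1:**
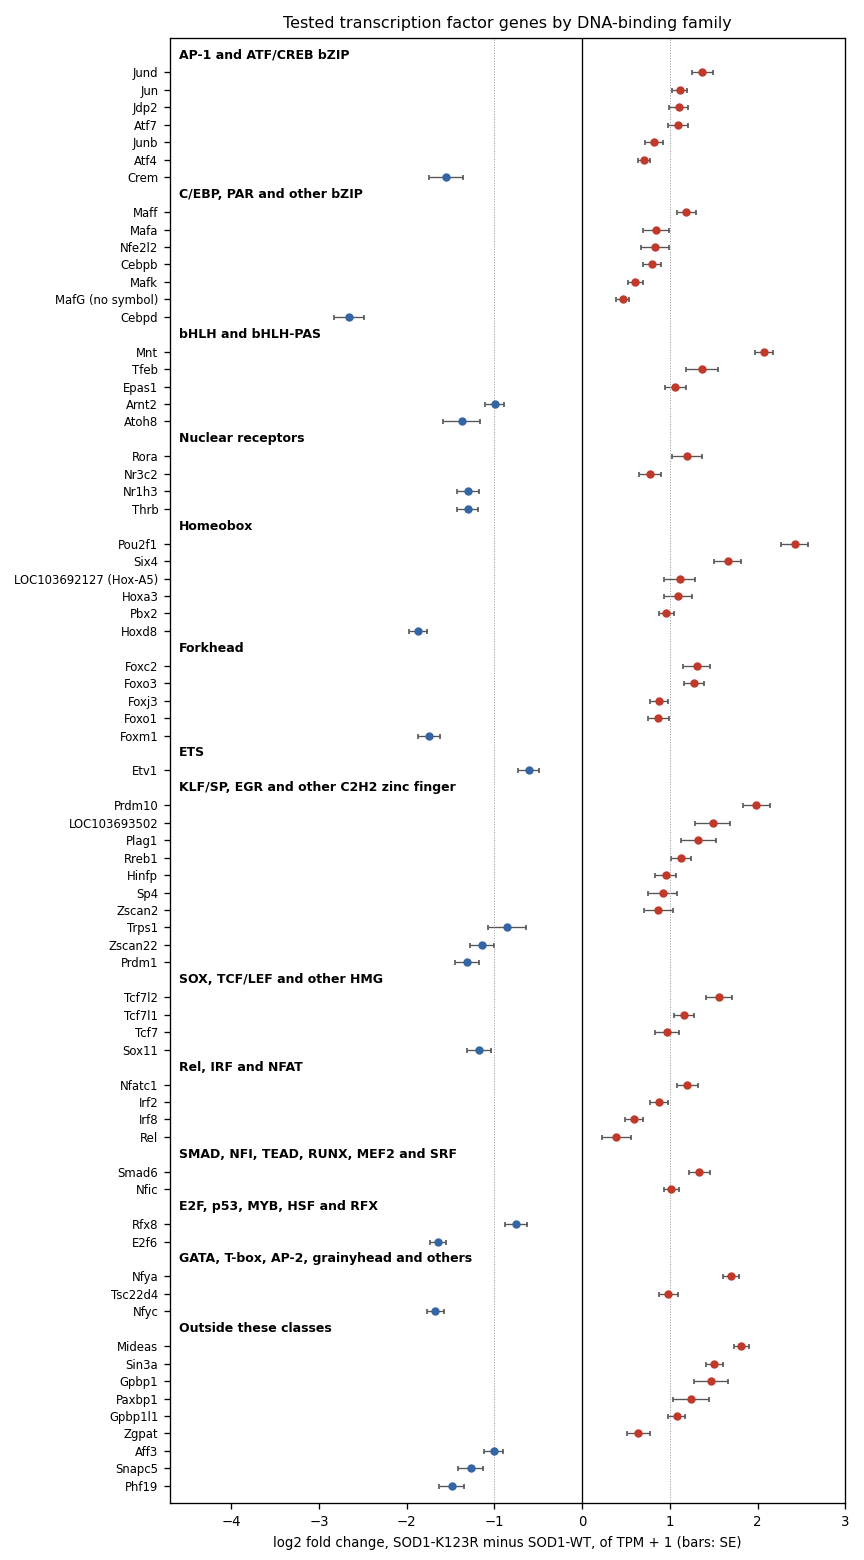
Log2 fold change of TPM + 1 (horizontal axis) with its standard error for tested members, grouped by DNA-binding family, with 1 member left out. Red points to the right of 0 are the 50 genes that rose in SOD1-K123R, blue points to the left are genes that fell, and dotted lines mark 2-fold.

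The direction varied with the level of expression. All 10 members with a mean of at least 50 TPM rose, whereas 11 of 20 with a mean under 5 TPM did. The same tilt is present in the whole table, where 64.6% of 415 genes at or above 50 TPM and 34.3% of 994 genes under 5 TPM rose. Summed over all 85 members, TPM were 1863, 1784, 1759 and 1892 in SOD1-WT replicates 1 to 4 and 3152, 3202, 3158 and 3091 in SOD1-K123R. As a share of the deposited rows this was 0.948% ± 0.0578 in SOD1-WT and 1.31% ± 0.0240 in SOD1-K123R (SD, n = 4 for both). Abundant members weigh most in these sums, with Atf4 alone at means of 420 TPM in SOD1-WT and 684 TPM in SOD1-K123R. Median-of-ratios scaling, which moved the typical log2 fold change by 0.42, left all 50 members higher and all 20 lower, but counted 48 as at least 2-fold higher and 9 as at least 2-fold lower. Quantile normalization, which moved it by 0.20, also left 50 higher and 20 lower, with 32 and 12 at least 2-fold. The values of 16 members moved by over 1.5 times under the first scaling and of 4 under the second, with no change of direction or call. A pseudocount of 0.1 TPM in place of 1 moved 6 by as much, all of them to larger changes.

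**Figure D2:**
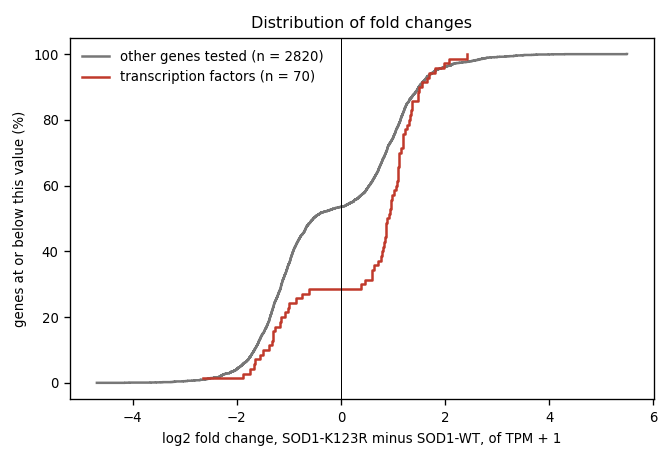
Cumulative share of genes (vertical axis, percent) at or below each log2 fold change (horizontal axis) for the 70 tested members and for the other genes tested. The line of the members crosses 0 at 28.6%, and few genes of either set lie near 0.

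Of the 8 most abundant members 7 were bZIP factors, and all 8 rose. Atf4, the effector of the integrated stress response, read 416, 407, 425 and 431 TPM in SOD1-WT replicates 1 to 4 and 684, 709.9, 697 and 647 TPM in SOD1-K123R. The 4 SOD1-K123R libraries all lay above the SOD1-WT libraries, a log2 fold change of 0.70 (SE 0.07, limma adjusted p = 8.87e-07). The size for Atf4 depended on the scaling, with 0.24 under quantile normalization and 1.19 under median-of-ratios scaling. Junb, an AP-1 subunit, read 238, 193, 169.5 and 196 TPM in SOD1-WT and 323, 338, 366 and 370.4 TPM in SOD1-K123R (log2 fold change 0.82, SE 0.10). Median-of-ratios scaling gave 1.30 for Junb. Its highest SOD1-WT value, in replicate 1, stayed below every SOD1-K123R value. Jund, which carries the CRE shown above, read 50.9, 42.9, 36.0 and 53.6 TPM against 122.99, 109, 120.5 and 122.4 TPM. It had the largest rise of this family (log2 fold change 1.37, SE 0.12, limma adjusted p = 2.2e-07). Jun went from 39.8, 38.3, 38.0 and 41.1 TPM to 83.8, 87.3, 77.3 and 96.8 TPM, with a narrow spread in SOD1-WT (log2 fold change 1.11, SE 0.09). Thus all 3 JUN genes were higher, as were Jdp2, a repressor that dimerizes with JUN (1.10), and Atf7, a relative of ATF2 (1.09).

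Crem, which encodes activator and repressor forms that bind the CRE, was the only 1 of 7 members of the AP-1 and ATF/CREB list that fell. It read 15.3, 23.3, 22.9 and 23.8 TPM in SOD1-WT and 8.06, 8.98, 5.35 and 4.59 TPM in SOD1-K123R (log2 fold change -1.55, SE 0.20, limma adjusted p = 6.96e-06). SOD1-WT replicate 1 was the lowest of its group and still lay above all SOD1-K123R libraries. The table gives gene-level TPM, so the activator and repressor forms of Crem are not separated.

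Among the other bZIP genes, 6 of 7 rose and Cebpd fell. Maff, a small Maf protein that lacks an activation domain, read 147, 134, 112 and 108 TPM in SOD1-WT and 263, 275, 294 and 304 TPM in SOD1-K123R (log2 fold change 1.19, SE 0.10, limma adjusted p = 2.94e-07). Mafk (log2 fold change 0.60) and a row without a symbol that is described as MafG (0.46) rose by smaller amounts, and these 3 small Maf proteins are the dimer partners of the NRF2 factor. Nfe2l2, which encodes NRF2, read 53.8, 71.2, 87.0 and 67.4 TPM and 139.8, 139, 129 and 90.5 TPM (log2 fold change 0.83, SE 0.16). With median-of-ratios scaling these log2 fold changes were 1.08 for Mafk, 0.93 for the MafG row and 1.30 for Nfe2l2. The groups came close for Nfe2l2, since SOD1-K123R replicate 4 was only just above SOD1-WT replicate 3. Mafa, a large Maf protein best known from beta cells, rose from a low level (1.57 ± 0.367 to 3.62 ± 0.712 TPM, mean ± SD, n = 4 each).

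The C/EBP relatives moved apart. Cebpb, a factor of inflammation and differentiation, read 203, 176, 155 and 203 TPM in SOD1-WT and 287, 334, 346 and 309 TPM in SOD1-K123R, a log2 fold change of 0.79 (SE 0.10, limma adjusted p = 8.49e-06) that was 1.28 under median-of-ratios scaling. Cebpd, which is induced in acute inflammation and early fat cell differentiation, read 25.3, 19.1, 17.4 and 28.2 TPM and 2.16, 2.71, 2.31 and 3.66 TPM. This was the largest fall among all members, -2.65 on the log2 scale (SE 0.17, limma adjusted p = 2.08e-08). The ratio of Cebpb to Cebpd TPM was 8.34 ± 0.911 in SOD1-WT and 122.5 ± 27.6 in SOD1-K123R (SD, n = 4 for both).

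The same split appeared between subunits of NF-Y. Nfya, the subunit that contacts the CCAAT box, read 9.98, 11.6, 11.7 and 9.83 TPM in SOD1-WT and 38.1, 37.8, 36.1 and 36.0 TPM in SOD1-K123R (log2 fold change 1.69, SE 0.09, limma adjusted p = 5.91e-09). Nfyc, a histone-fold subunit, read 24.4, 22.9, 26.1 and 26.3 TPM and 6.63, 8.03, 6.78 and 7.10 TPM (log2 fold change -1.67, SE 0.10, limma adjusted p = 1.17e-08). The order of the subunits was thereby turned round in every library: Nfya over Nfyc was 0.409, 0.509, 0.447 and 0.373 in SOD1-WT and 5.74, 4.70, 5.33 and 5.07 in SOD1-K123R. Nfyb, the third subunit, was not analysed here.

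**Figure D3:**
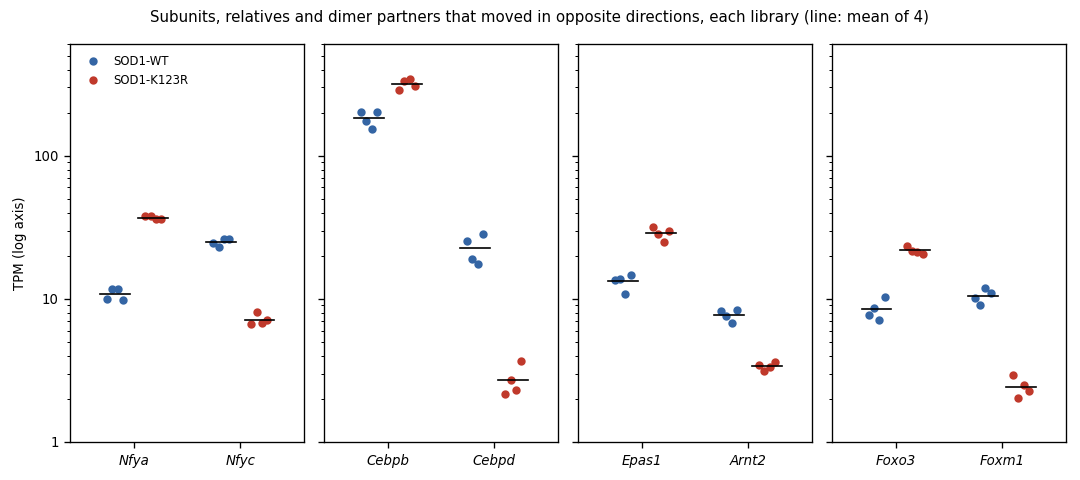
TPM on a log axis in each library (points, blue for SOD1-WT and red for SOD1-K123R) with the mean of 4 as a line, for 4 pairs of related genes chosen after their values were seen. The left gene of each pair rose and the right gene fell, and Nfya went from below Nfyc to above it.

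In the bHLH families 3 of 5 tested genes rose. Mnt, which pairs with MAX on the E-box and represses genes that MYC activates, read 9.32, 8.45, 8.80 and 10.1 TPM in SOD1-WT and 47.2, 36.7, 42.4 and 41.4 TPM in SOD1-K123R. The highest SOD1-WT value was far below the lowest SOD1-K123R value, and the log2 fold change was 2.07 (SE 0.10, limma adjusted p = 2.55e-09). Tfeb, a regulator of lysosome formation, rose by 1.37 (SE 0.18). Epas1, which encodes the oxygen-sensitive factor HIF-2alpha, rose from 13.2 ± 1.71 to 28.7 ± 2.88 TPM (1.06 on the log2 scale), whereas Arnt2, which encodes a dimer partner of HIF-alpha subunits, fell from 7.75 ± 0.729 to 3.38 ± 0.192 TPM (-0.998, or -0.59 under median-of-ratios scaling). The ratio of Epas1 to Arnt2 was 1.70 ± 0.0979 in SOD1-WT and 8.51 ± 0.781 in SOD1-K123R. Atoh8, an atonal-type bHLH gene, fell by 1.37 on the log2 scale (SE 0.22). SOD1-K123R replicate 3 held 2.39 TPM, above the 0.720 to 1.01 TPM of the other replicates.

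Forkhead genes rose in 4 of 5 cases. Foxo3, a factor that insulin signalling keeps out of the nucleus, read 7.76, 8.67, 7.12 and 10.3 TPM and 23.6, 21.6, 21.3 and 20.5 TPM (log2 fold change 1.28, SE 0.12, limma adjusted p = 3.81e-07), and Foxo1 rose from 4.46 ± 0.374 to 8.98 ± 1.08 TPM (0.87). Foxc2, a mesenchymal developmental factor, had the largest rise of the family (1.30, SE 0.15) at a low level, with 1.12, 1.74, 1.22 and 1.24 TPM in SOD1-WT and 4.79, 5.49, 5.46 and 3.42 TPM in SOD1-K123R. Foxj3 rose by 0.88, or 1.34 with median-of-ratios scaling. Foxm1, an activator of genes of the G2 and M phases, went the other way, from 10.1, 9.05, 11.9 and 11.0 TPM to 2.94, 2.03, 2.49 and 2.27 TPM (log2 fold change -1.75, SE 0.13, limma adjusted p = 5.95e-08). The highest SOD1-K123R value, 2.94 TPM, was well under the lowest SOD1-WT value, 9.05 TPM.

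Homeobox genes rose in 5 of 6 cases. Pou2f1, the octamer-binding factor OCT1, had the largest rise of all tested members (log2 fold change 2.42, SE 0.15, limma adjusted p = 1.82e-08). It read 0.570, 0.680, 0.570 and 0.880 TPM in SOD1-WT and 8.78, 7.98, 9.85 and 5.73 TPM in SOD1-K123R, so it lay under 1 TPM in all SOD1-WT libraries. Six4, a factor of muscle and sensory development, read 1.84, 2.84, 3.38 and 2.67 TPM and 11.3, 11.8, 10.6 and 8.52 TPM (log2 fold change 1.66, SE 0.15). Hox genes, which set position along the body axis, were divided. Hoxd8 read 17.4, 18.2, 17.8 and 18.6 TPM in SOD1-WT and 4.30, 3.78, 4.57 and 4.16 TPM in SOD1-K123R, with little spread in either group (log2 fold change -1.87, SE 0.10, limma adjusted p = 4.8e-09). Hoxa3 (1.09, or 1.76 with the smaller pseudocount) and the row LOC103692127, described as Hox-A5 (1.11), rose from low levels, and Pbx2, a partner of Hox proteins, rose by 0.96.

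**Figure D4:**
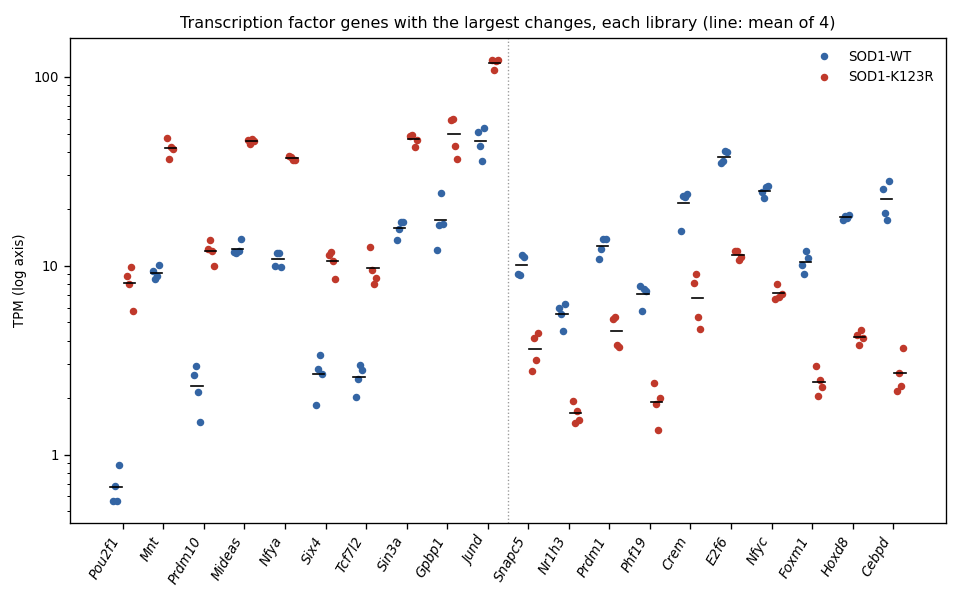
TPM on a log axis in each library (points, blue for SOD1-WT and red for SOD1-K123R) with the mean of 4 as a line, for the 10 members with the highest and the 10 with the lowest log2 fold change at 5 TPM or more in the higher group, among members with separate groups and an official symbol, which leaves out LOC103693502 (1.49). Separate groups were a condition of this choice, and 91.4% of all genes tested meet it.

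The TCF/LEF genes, nuclear effectors of Wnt signalling that bind beta-catenin, rose. Tcf7l2 read 2.02, 2.51, 2.99 and 2.81 TPM in SOD1-WT and 12.5, 9.47, 8.00 and 8.63 TPM in SOD1-K123R (log2 fold change 1.56, SE 0.15, limma adjusted p = 5.63e-07). Tcf7l1 (1.16) and Tcf7 (0.96) also rose, so that all 3 tested genes of this branch were higher, and Lef1, below the filter, had means of 0.710 and 1.14 TPM. Their coactivator gene Ctnnb1, which encodes beta-catenin, fell from 206 ± 2.84 to 61.5 ± 6.49 TPM (log2 fold change -1.73, limma adjusted p = 2.86e-09), and Tle3, which encodes a Groucho-type corepressor of TCF proteins, rose from 16.2 ± 2.18 to 61.9 ± 4.00 TPM (1.88). Sox11, the only SOX gene among the tested members, fell from 2.79, 3.18, 1.83 and 2.64 TPM to 0.580, 0.730, 0.590 and 0.440 TPM (-1.18, SE 0.14, or -1.97 with the smaller pseudocount).

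Nuclear receptors were divided, with 2 of 4 higher. Rora, which activates clock genes through ROR elements, read 2.54, 3.55, 4.19 and 3.27 TPM and 10.5, 10.9, 8.61 and 6.50 TPM (log2 fold change 1.20, SE 0.17), and Nr3c2, the mineralocorticoid receptor, rose by 0.77 from under 1 TPM. Nr1h3, the oxysterol receptor LXR-alpha, fell from 5.96, 5.57, 4.51 and 6.24 TPM to 1.92, 1.47, 1.69 and 1.53 TPM (log2 fold change -1.30, SE 0.13, limma adjusted p = 6.19e-07). Thrb, a thyroid hormone receptor, fell by 1.31 on the log2 scale (SE 0.12), from 2.29, 2.62, 3.40 and 2.80 TPM to 0.680, 0.470, 0.450 and 0.490 TPM. With the smaller pseudocount the values were 1.30 for Nr3c2 and -2.21 for Thrb.

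Among the Rel, IRF and NFAT genes, which carry cytokine, interferon and calcium signals, 4 rose. Nfatc1, a calcium-responsive factor, read 4.44, 4.40, 4.66 and 5.42 TPM and 13.1, 12.7, 9.91 and 13.1 TPM (log2 fold change 1.20, SE 0.12, limma adjusted p = 9.67e-07). The interferon regulatory factors Irf2 (0.87) and Irf8 (0.59) rose, by 1.31 and 1.03 under median-of-ratios scaling. Rel, an NF-kB subunit, had the weakest call of all members. It read 1.14, 1.21, 1.13 and 1.32 TPM in SOD1-WT and 2.16, 2.50, 2.12 and 1.00 TPM in SOD1-K123R, so its groups overlapped through SOD1-K123R replicate 4. Its log2 fold change was 0.39 (limma adjusted p = 0.0354), and 0.66 under either scaling. The call was lost with a replicate block (limma adjusted p = 0.0565) and in 6 of 8 fits lacking a library, namely each of SOD1-WT replicates 1 to 3 and SOD1-K123R replicates 1 to 3 (limma adjusted p from 0.0590 to 0.109).

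Genes listed as C2H2 zinc fingers rose in 7 of 10 cases, with the GATA-type repressor Trps1 counted in that list. Prdm10, a PR-domain protein, read 2.63, 2.94, 2.15 and 1.48 TPM in SOD1-WT and 12.2, 13.6, 12.0 and 9.95 TPM in SOD1-K123R (log2 fold change 1.98, SE 0.16, limma adjusted p = 1.09e-07). Plag1, a growth-associated factor, read 0.50, 0.750, 1.65 and 0.940 TPM and 5.01, 4.88, 2.86 and 2.90 TPM (1.33, SE 0.20), with its libraries widely spread in both groups. Rreb1, which acts downstream of RAS and TGF-beta (1.12), Hinfp, an activator of histone H4 genes (0.95), Sp4 (0.92) and Zscan2 (0.87) rose as well. So did LOC103693502 (1.49), described as similar to zinc finger protein 431, whose TPM is uncertain because reads of that large family can be split between near copies.

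Prdm1, the repressor BLIMP1, read 10.8, 12.3, 13.8 and 13.8 TPM in SOD1-WT and 5.22, 5.36, 3.78 and 3.72 TPM in SOD1-K123R (log2 fold change -1.32, SE 0.14, limma adjusted p = 1.32e-06), and Zscan22 fell by 1.15 on the log2 scale. Trps1, a repressor of the GATA type with a role in growth plate cartilage, read 13.2, 18.4, 24.4 and 22.5 TPM and 12.8, 13.4, 8.59 and 6.99 TPM. Its mean fell by 0.86 on the log2 scale (SE 0.21, limma adjusted p = 0.00196), but the groups overlapped, since SOD1-WT replicate 1 lay below SOD1-K123R replicate 2. Median-of-ratios scaling gave -0.41 for Trps1.

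Among the smaller families Nfic and Smad6 rose, while E2f6, Rfx8 and Etv1 fell. Nfic, a nuclear factor I protein, read 74.2, 70.3, 65.4 and 83.0 TPM in SOD1-WT and 157, 142, 139.7 and 157 TPM in SOD1-K123R (log2 fold change 1.02, SE 0.09), and Smad6, an inhibitory SMAD of BMP signalling, read 11.2, 8.12, 8.35 and 11.8 TPM and 26.3, 25.4, 27.6 and 25.3 TPM (1.34, SE 0.12). E2f6, an E2F protein that represses and lacks an activation domain, read 34.8, 35.9, 40.6 and 39.8 TPM and 11.9, 11.9, 10.6 and 11.1 TPM (log2 fold change -1.64, SE 0.09, limma adjusted p = 7.04e-09). The list of E2F, p53, MYB, HSF and RFX genes held only 2 tested members, E2f6 and Rfx8, and Rfx8 also fell (-0.76). Etv1, the only ETS gene tested, read 3.07, 3.07, 4.00 and 3.36 TPM and 2.11, 1.69, 1.96 and 1.70 TPM (-0.61, SE 0.12). Median-of-ratios scaling gave -0.26 for Etv1 and -0.45 for Rfx8, quantile normalization gave -0.29 and -0.46, and the smaller pseudocount gave -1.15 for Rfx8. Tsc22d4, a leucine zipper protein of the TSC22 family, rose by 0.98.

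The annotation term also takes in 9 proteins that belong to none of these DNA-binding families, some of them cofactors. Mideas, a scaffold of a histone deacetylase complex, read 11.8, 11.7, 11.9 and 13.8 TPM in SOD1-WT and 46.1, 43.9, 46.7 and 45.7 TPM in SOD1-K123R, with the smallest adjusted p of all members (log2 fold change 1.81, SE 0.09, limma adjusted p = 2.32e-09). Sin3a, a corepressor scaffold that also binds histone deacetylases, read 13.7, 15.6, 16.9 and 17.1 TPM and 48.6, 49.1, 42.5 and 46.4 TPM (1.51, SE 0.10). The groups did not overlap for either scaffold, as was so for 91.4% of all genes tested. Gpbp1, which binds GC-rich promoters, read 12.2, 16.4, 24.1 and 16.6 TPM and 59.0, 59.5, 42.7 and 36.8 TPM (1.47, SE 0.20), and its relative Gpbp1l1 rose by 1.08. Paxbp1 (1.24) and Zgpat (0.64, or 1.07 under median-of-ratios scaling) rose.

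The 3 of these 9 that fell were Phf19, Snapc5 and Aff3. Phf19, a Polycomb-like partner of the PRC2 complex, read 7.76, 5.77, 7.56 and 7.36 TPM in SOD1-WT and 2.40, 1.86, 1.35 and 2.00 TPM in SOD1-K123R (log2 fold change -1.49, SE 0.14, limma adjusted p = 5.75e-07). Snapc5, a subunit of the complex that starts transcription of small nuclear RNA genes, read 9.04, 8.87, 11.4 and 11.1 TPM and 2.78, 4.14, 3.15 and 4.40 TPM (-1.27, SE 0.14). Aff3, a protein related to components of elongation complexes, fell by 1.01 on the log2 scale (-1.56 with the smaller pseudocount).

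The GO terms for activation and for repression of RNA polymerase II transcription, which the rule did not use, divide the tested members. Of 19 with the activation term only, 17 rose and 2 fell, the 17 being 89.5% against 69.4% of 85 tested genes of the table with that annotation. Of 6 with the repression term only, 3 rose and 3 fell, against 49 rising of 70 such genes in the table. Of 15 with both terms 10 rose (66.7%, against 59.5% of 37 such genes), and of 30 with neither term 20 rose (66.7%, against 43.0% of 2698). The classes of the whole table include the members, and differences between classes were not tested. The table's KEGG annotation covered 21 of the 85 members, and the best filled pathways were small (6 members in pathways in cancer and at most 4 in any other).

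The proteins that transcription factors recruit were followed in lists written from textbook knowledge. Of 114 coactivators and corepressors 22 were tested, 1 of them (Sin3a) also a member, and all 22 passed, 14 higher and 8 lower. Besides Ctnnb1 and Tle3, those with the smallest adjusted p were Lmo4, a LIM-only adaptor, which fell from 109 ± 3.67 to 37.8 ± 2.12 TPM, Brd2, a reader of acetylated histones, which rose from 120.5 ± 8.53 to 303 ± 8.37 TPM, and the clock repressor Cry2, which rose from 8.53 ± 0.723 to 29.0 ± 1.42 TPM. The median log2 fold change of this list was 0.85. Of 77 Mediator subunits and general transcription factors 8 were tested and all passed, 2 higher and 6 lower, with a median of -1.37. Over all genes tested 95.7% passed, 44.6% higher and 51.1% lower, with a median of -0.49. Passing by every tested gene of both lists is therefore near the background. Med27 fell from 39.0 ± 5.46 to 9.88 ± 1.67 TPM, and the initiation factor Gtf2b fell from 54.3 ± 4.10 to 18.1 ± 2.99 TPM. Gtf2i, also counted in this list, fell from 60.6 ± 5.62 to 19.3 ± 3.20 TPM. Med11 and Med9 fell by 1.77 and 1.20 on the log2 scale. The 2 that rose were Med13l (0.87) and Med26 (0.94). The difference between these lists and the members was not tested.

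Members differed in how closely their replicates agreed. The coefficient of variation over 4 libraries had a median over members of 14.1% in SOD1-WT, or 12.2% in SOD1-K123R, and ranged from 2.31% to 60.3%. It was highest for Atoh8, Plag1 and Hoxa3, which lie at low TPM, and high at larger TPM for Paxbp1, Trps1 and LOC103693502. In SOD1-WT, Gpbp1, Paxbp1, Plag1, Trps1, LOC103693502 and Nfe2l2 were all lowest in replicate 1 and highest in replicate 3. In SOD1-K123R the same genes were all higher in replicates 1 and 2 than in replicates 3 and 4. Jund, Junb, Jdp2, Cebpb, Cebpd and Tfeb were lowest in SOD1-WT replicate 3. These genes were chosen after their values were seen, and the replicates have no known order.

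The 15 members below a mean of 1 TPM were not tested. Their group means ran from 0.0150 to 1.21 TPM, with 11 higher and 4 lower in SOD1-K123R. Those reaching the highest levels were Foxa3 (0.170 ± 0.0762 to 1.21 ± 0.212 TPM), Lef1, Nr6a1 (0.453 ± 0.0435 to 1.12 ± 0.163 TPM) and Nfatc2 (0.0575 ± 0.0650 to 1.09 ± 0.211 TPM). Foxo6, Bach2, Esr1, Spib, Mesp2 and Nkx6-1 were also higher on average, and Smad9 (0.932 ± 0.114 to 0.292 ± 0.0585 TPM), Zkscan4, Foxh1 and 2010315B03Rikl were lower. At this level TPM keeps no read counts from which an error could be set.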

How the data were processed

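RNA-seq of total RNA from rat nucleus pulposus cells was made with TRIzol extraction, SuperScript II reverse transcription and paired-end sequencing on an Illumina NovaSeq, per the labels' protocols. The authors deposited a gene-level table of TPM, per the file headers, whose name gives RSEM as its source. DESeq2 is named in the submitters' processing notes without a role. The aligner, build and annotation, not given in the sources used here, could change the values. TPM summed to 187515 to 243393 a library over the rows, and depth is unknown, so the number of libraries limits the precision.

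Columns were matched to samples by library names in the labels and grouped by title and genotype. Genes whose mean over the 8 libraries reached 1 TPM were fitted as log2(TPM + 1), SOD1-K123R minus SOD1-WT, with limma 3.58.1 (lmFit, eBayes with a trend) in R 4.3.3, two-sided, Benjamini-Hochberg over 2890 genes, threshold 0.05. Fold changes on this scale understate changes of low genes. The fit was tested on simulated data with 200 changed and 2690 unchanged genes. That setting is unlike this table, where 95.7% of all genes tested passed.

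The members and lists were chosen with earlier results of these data known. A member had to carry the exact GO term. Families came from lists by symbol for 68 members, and 17 were placed by hand afterwards. Among members with an official symbol, which leaves out rows under locus names such as LOC103693502 and LOC103692127, named were the 10 highest and 10 lowest (separate groups, 5 TPM in the higher group), up to 4 with the largest change among those in each family's list (not those placed by hand, such as Zscan22), the 8 most abundant, any that did not pass and 5 per partner list. Other members are named so that they are accounted for, except 2 that are counted but not reported here. Alternatives were another pseudocount, filter, scaling, eBayes setting, membership rule, a replicate block and leaving out each library. Promoter sequences came from a RefSeq table (GRCr8), taking the first entry of a symbol. No genome was used.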

Additional observations from a re-analysis of the deposited data

Results flagged for a closer look

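Among the 140 groups of 4 libraries (70 tested members in each of 2 groups), 7 held a library set apart from the other 3 by Dixon's test at the 95% level, and chance gives about 7. Crem read 15.3 TPM in SOD1-WT replicate 1 against 22.95 to 23.8 in the rest of its group. Nfatc1 read 9.91 TPM in SOD1-K123R replicate 3 against 12.7 to 13.1, and Pbx2 read 36.3 TPM there against 38.6 to 39.0. Mideas read 13.8 TPM in SOD1-WT replicate 4 against 11.7 to 11.9. Tcf7l1 stood apart in both groups, at 2.64 TPM in SOD1-WT replicate 4 against 1.93 to 2.04 and at 6.44 TPM in SOD1-K123R replicate 1 against 5.83 to 5.91. Aff3 read 0.780 TPM in SOD1-K123R replicate 3 against 0.910 to 0.930. For all 6 genes the groups still did not overlap.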

How the results depend on the processing

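Over the alternatives, 1093 refitted values of single members kept their direction and their side of the threshold, 0 reversed and 7 lost their call, all of them for Rel. With a filter at a mean of 5 TPM, which tests fewer genes, 39 members were higher and 11 lower, 9 of the latter at least 2-fold. Median-of-ratios scaling gave 48 at least 2-fold higher and 9 at least 2-fold lower. With no filter on low values 83 of 85 members passed, 59 higher and 24 lower, and with the names left out by the rule 63 of 87 were higher and 24 lower. Taking longer GO terms that contain the term gave 89 of 92, with 64 higher and 25 lower. The main fit, from which both of these counts came, passed 95.7% of all genes tested, 44.6% higher and 51.1% lower. Leaving out each library gave 69 to 70 passing members, 49 to 50 of them higher. Replicate numbers gave no sign of pairing, since same-numbered deviations correlated from -0.35 to 0.05. Differently numbered libraries of the groups correlated from -0.40 to 0.44, and a pairing under other numbers was not tested. With a replicate block 69 members passed, and Rel was the only member to lose its call. The depth of the libraries is unknown, the rows are a part of the transcriptome chosen in a way not given in the sources used here, and the replicates may be technical.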
